A study of Mus musculus with 12 samples.

Results

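The genes described here are 37 mouse genes of the core autophagy machinery. They were taken from a list of symbols of known function, which was chosen with earlier results of these data known. Each symbol was matched to 1 Ensembl ID among the 48709 gene IDs in the deposited count tables. All 37 passed the filter on low counts, which left 14408 genes for testing. By role they comprise 5 initiation genes, 6 genes of the class III PI 3-kinase complexes, 5 genes of lipid supply to the growing membrane, 11 conjugation genes, 5 members of the Atg8 family and 5 cargo receptors. The RNA came from cultured mouse embryonic fibroblasts, connective tissue cells grown out of embryos, of the C57BL/6 strain. WT (wild-type) and TAZKo cells were each grown either in normoxia or for 24 hours in hypoxia, with 3 samples in each of the 4 groups. TAZKo denotes cells without tafazzin, an acyltransferase that gives cardiolipin of the mitochondrial inner membrane its mature fatty acids, and the WT cells are described as isogenic with them. All cells were grown in DMEM with fetal bovine serum. The labels give neither the oxygen level, nor how tafazzin was removed, nor whether the TAZKo cells are 1 clone. Nor do they say that the 3 samples of a group were separate cultures, so a p-value here measures the spread between these samples, which may be technical.

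Autophagy encloses portions of the cytoplasm in a double membrane and delivers them to the lysosome for breakdown and reuse. The ULK1 kinase complex starts the process, the class III PI 3-kinase makes the lipid signal PI3P, and WIPI proteins, ATG2 and ATG9 supply lipid to the expanding phagophore. A pair of ubiquitin-like conjugation reactions then attach Atg8 proteins, of the LC3 and GABARAP families, to phosphatidylethanolamine in the membrane. Cargo receptors such as p62 bind both the cargo and the attached Atg8 proteins. In fibroblasts autophagy supplies nutrients under starvation and removes damaged mitochondria. The abundance of an mRNA does not measure autophagic flux, which depends on protein modification and turnover and was not measured here.

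Total counts per sample ran from 21039451 to 31204510, and 3 counts were worth 0.0927 to 0.150 CPM (read counts scaled to a common library total). Such floors cover counting error only. One library stood apart before any result was drawn: WT normoxia sample 1 lay at 35.7 on the third principal component (6.15% of the variance), with the other 11 between -13.4 and 10.5, and results that rest on it are given with and without it. The targeted gene, Taz, was not reduced in the libraries labelled TAZKo. Its mean was 34.6 ± 2.92 CPM (SD, n = 3) in WT normoxia and 42.2 ± 3.18 in TAZKo normoxia, and 25.1 ± 1.49 and 33.8 ± 1.15 in WT and TAZKo hypoxia. The count covers the whole gene, so these values do not check the label, and TAZKo below means the libraries so labelled. Fibroblast markers summed to between 10024.6 and 13099.9 CPM over 9 genes. Among them Thy1 had only 2 to 8 counts per library, and Col1a2, at group means of 2.12 to 5.33 CPM, was far below Col1a1 at 1153 to 3605 CPM. Of the defining markers of other cells, Adgre1 of macrophages was at 0 in every library, Ptprc of leukocytes had at most 1 count, and Cdh5 of endothelium at most 2. Summed endothelial markers over 4 genes nevertheless ran from 14.5 to 21.01 CPM in WT and from 3.84 to 7.45 CPM in TAZKo libraries, mostly Tek. Summed leukocyte and macrophage markers over 5 genes ran from 4.42 to 5.57 CPM in normoxia and from 8.03 to 13.9 CPM in hypoxia, mostly Cd68 and Csf1r. Over 4 neural and glial genes the sums were 32.8 to 39.6 CPM for WT and 22.3 to 28.1 CPM for TAZKo in normoxia, and 44.0 to 60.8 and 34.8 to 37.1 CPM in hypoxia. Over 4 skeletal muscle genes they were 3.82 to 4.95 CPM for WT and 9.01 to 10.1 CPM for TAZKo in normoxia, and 2.85 to 4.51 and 5.53 to 6.51 CPM in hypoxia. Over 5 epithelial genes they were 122 to 152 CPM for WT and 98.04 to 105 CPM for TAZKo in normoxia, and 117 to 139 and 120.4 to 128 CPM in hypoxia. Their part in the differences below was not tested.

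Per kilobase of exon, the cargo receptor Sqstm1 and the Atg8 protein Gabarap were the most abundant members in all 4 groups. In WT normoxia Sqstm1, which encodes p62, stood at 116 ± 10.2 CPM per kilobase and Gabarap at 109 ± 3.03 (SD, n = 3), so these neighbours in the order did not differ beyond their spread. Gabarapl1 followed at 71.5 ± 4.61, Map1lc3a, which encodes LC3A, at 38.3 ± 4.61, and Nbr1 and Atg101 at 29.2 ± 0.577 and 29.2 ± 2.77. At the other end stood Atg10, the E2-like enzyme for Atg12, at 1.68 ± 0.404, Atg16l2 at 2.13 ± 0.0520 and the protease Atg4a at 2.21 ± 0.0982. These 3 lowest members all belong to the conjugation group, whose levels on this scale stayed below those of Sqstm1 and Gabarap in every library. Map1lc3b, the LC3 gene most used as a marker of autophagy, was at 9.77 ± 0.545, lower per length than Map1lc3a. Lengths are the union of annotated exons, so a gene that uses a short isoform reads low on this scale.

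**Figure D1:**
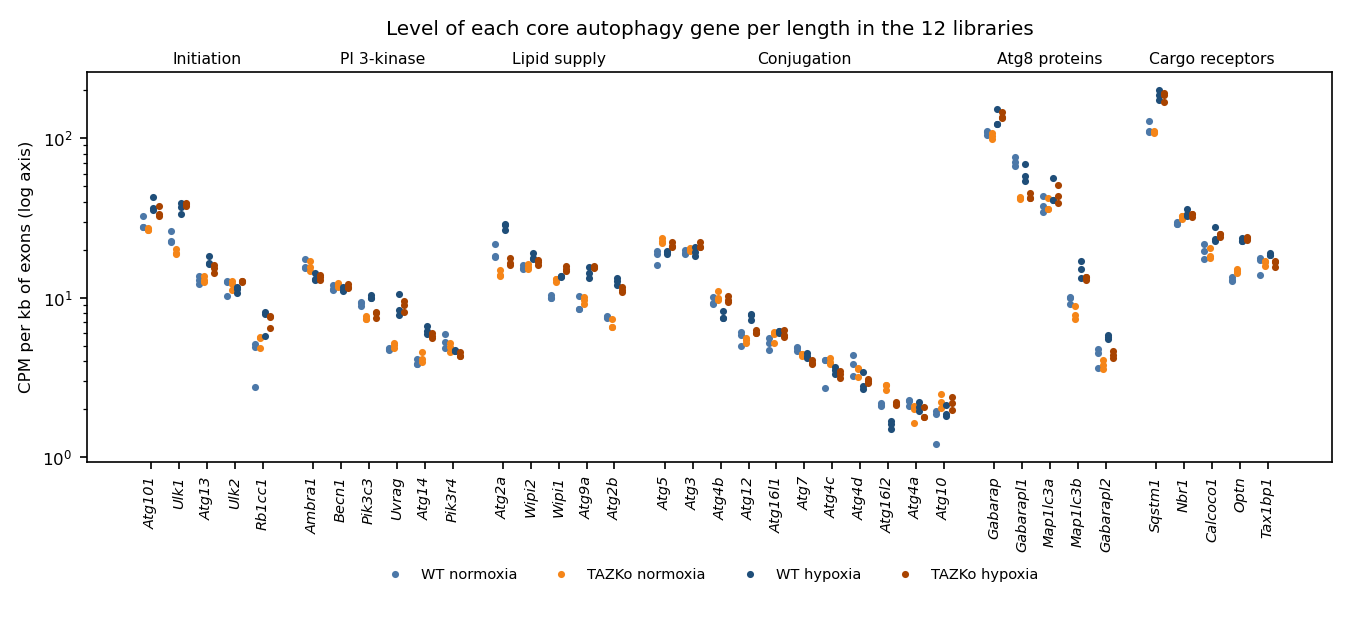
Level of each member in each of the 12 libraries, in TMM-scaled CPM per kilobase of exon on a log axis, grouped by role and ordered within a role by mean level; each point is 1 library and colour gives the group. Sqstm1 and Gabarap lie above all other members in every group, and Atg10 and Atg4a lie near the bottom.

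Most members responded to hypoxia in WT cells, and mostly upward. Of the 37, 21 rose after 24 hours of hypoxia in WT, where 26% of all 14408 tested genes rose, and 6 fell, where 25% of all tested genes fell. The members' median log2 difference was 0.26, beside 0.0089 for all tested genes. In TAZKo cells 14 of the 37 rose, beside 22.2% of tested genes, and 3 fell, beside 21.6%, with a median of 0.09 beside -0.0088. These values describe the list and are no test of it. In both genotypes 14 members rose, where 18.4% of tested genes did so, and 2 fell, where 17.3% did. No member that passed the test reached a 2-fold difference. By unadjusted p under 0.05 the counts were 29 of 37 in WT, beside 8174 of all 14408 tested genes, and 19 in TAZKo, beside 7290. The TAZKo count is near the share of all genes, so it is no result about the list. The shares that rose or fell by adjusted p depend on scaling. With library size alone the median of all genes moved by -0.11 in WT and by -0.09 in TAZKo. The split of higher against lower was then 15 to 8 in WT, in place of 21 to 6, and 12 to 6 in TAZKo, in place of 14 to 3. The calls lost that way were Wipi2, Atg16l1, Gabarap, Nbr1, Calcoco1 and Tax1bp1 in WT and Atg13 and Atg2a in TAZKo. In bulk RNA a change in the number of cells of 1 kind and a change in RNA per cell cannot be told apart.

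**Figure D2:**
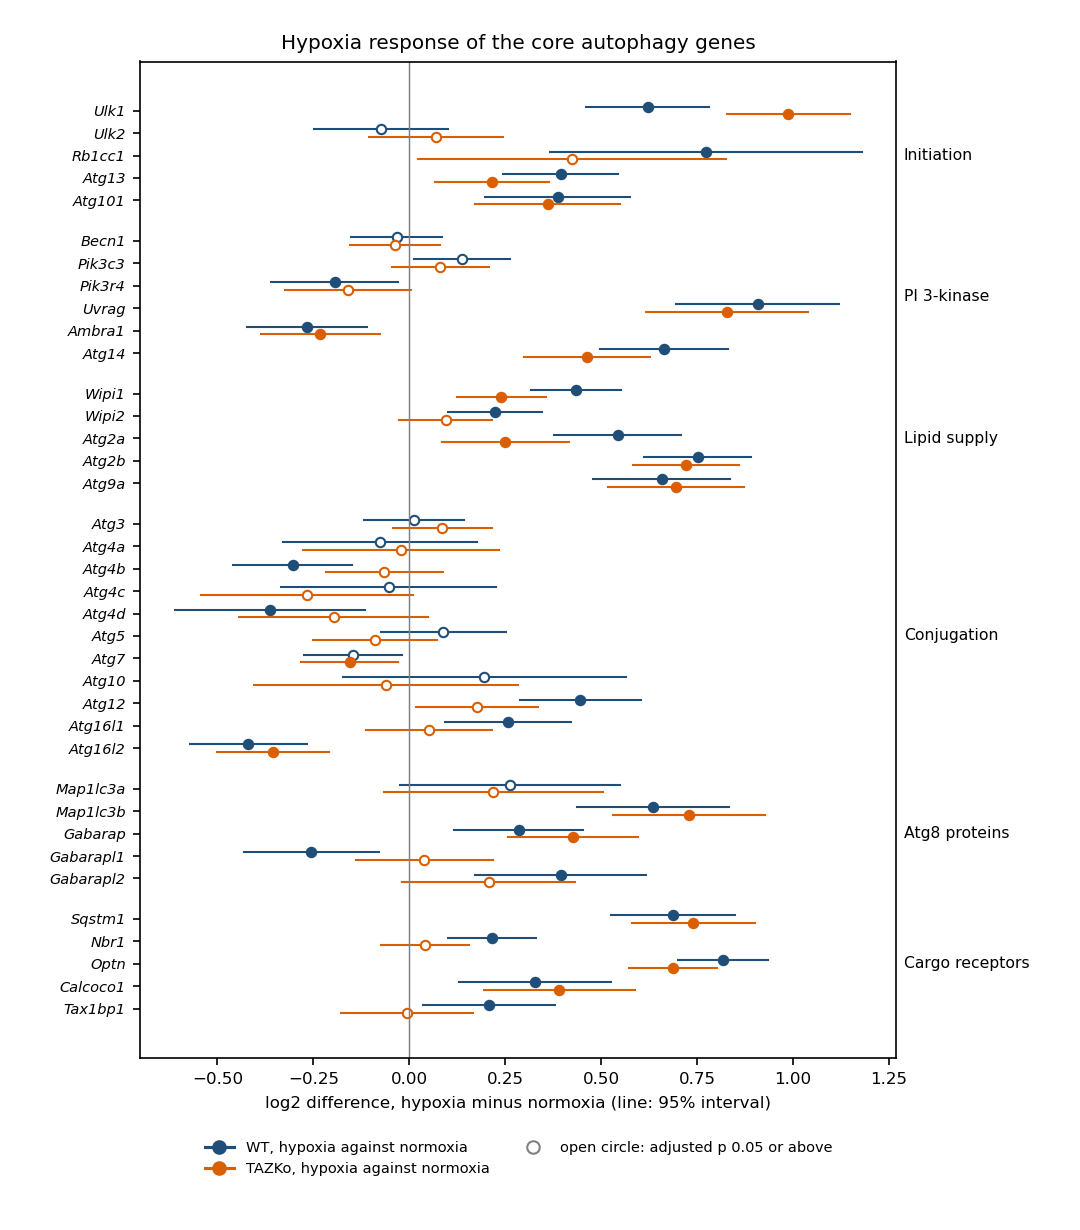
Log2 difference of each member between hypoxia and normoxia, in WT (blue) and TAZKo (orange) cells, with 95% intervals as lines; filled circles have an adjusted p under 0.05. Genes of initiation, lipid supply and the cargo receptors lie mostly to the right of 0, at medians of 0.39, 0.54 and 0.33 in WT, and the conjugation genes lie around 0, at a median of -0.05 in WT.

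The initiation genes encode the ULK kinases and their partners. Of the 5, 4 rose in WT hypoxia (median log2 difference 0.39), beside 26% of all tested genes, and 3 in TAZKo hypoxia (0.36), beside 22.2%. None fell, beside 25% and 21.6%. Gene positions here and below are those of GENCODE M21 on GRCm38, the assembly also called mm10. Ulk1 (chr5:110784488-110810097) encodes the kinase that starts phagophore formation. It stood at 171, 145 and 147 CPM in WT normoxia against 254, 217 and 241 in WT hypoxia, while TAZKo cells gave 131, 121 and 124 in normoxia against 249, 253 and 244 in hypoxia. Every hypoxic library was above every normoxic one. The log2 difference was 0.62 (SE 0.07, adjusted p = 1.16e-05) in WT and 0.99 (SE 0.07, adjusted p = 2.53e-07) in TAZKo, the largest hypoxia difference among the members in TAZKo. Ulk2, the related kinase, did not pass the test in either genotype, with log2 differences of -0.07 and 0.07 and 95% intervals of -0.25 to 0.10 and -0.10 to 0.24.

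Rb1cc1 (chr1:6206197-6276648) encodes FIP200, the scaffold of the ULK complex. Its levels were 40.4, 74.9 and 71.7 CPM in WT normoxia against 84.7, 116 and 119 in WT hypoxia, while TAZKo cells gave 71.2, 81.96 and 83.5 in normoxia against 113, 94.3 and 111 in hypoxia. WT normoxia sample 1 was the lowest of the 12 libraries by a wide margin. The log2 difference in WT was 0.77 (SE 0.19, adjusted p = 0.00361) with that library, and without it the gene still rose (0.54, adjusted p = 0.00182). In TAZKo it was 0.42 (SE 0.19, adjusted p = 0.0824) and did not pass. It passed there once WT normoxia sample 1, which enters the shared estimate of spread, was left out (0.42, adjusted p = 0.00432), and with the replicate number as a block (0.44, adjusted p = 0.0225). Rb1cc1 shares 11.97% of its 50-base words with other annotated transcripts, most with Gm13961, so part of its count could belong to another gene. The other subunits, Atg13 and Atg101, rose in both genotypes, Atg13 by 0.39 and 0.22 and Atg101 by 0.39 and 0.36 on the log2 scale in WT and TAZKo. The TAZKo call of Atg13 was lost without TAZKo normoxia sample 2 or 3 or TAZKo hypoxia sample 1 or 2 (adjusted p = 0.0986 to 0.147 in those 4 fits).

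Of the 6 class III PI 3-kinase genes, 2 rose and 2 fell in WT (median 0.05), beside 26% and 25% of all tested genes. In TAZKo 2 rose and 1 fell (median 0.02), beside 22.2% and 21.6%. These counts are near the background, so they are no result about the group. Uvrag (chr7:98885021-99141141) encodes a subunit of the PI 3-kinase complex that acts on endosomes and late autophagosomes. Its levels were 42.8, 42.6 and 43.7 CPM in WT normoxia against 95.8, 70.5 and 75.9 in WT hypoxia, while TAZKo cells gave 46.96, 45.5 and 43.95 in normoxia against 81.6, 86.5 and 73.9 in hypoxia. The lowest hypoxic library was above the highest normoxic one by a wide margin. The log2 difference was 0.91 (SE 0.10, adjusted p = 4.68e-06) in WT, the largest among the members there, and 0.83 (SE 0.10, adjusted p = 1.57e-05) in TAZKo. An antisense transcript, Gm45187, covers 17.6% of the exonic bases of Uvrag, and the kit used does not mark strand, so reads of the pair cannot be told apart.

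Atg14, which directs the kinase to the site of phagophore formation, also rose in both genotypes, by 0.66 and 0.46 on the log2 scale. The core subunits Becn1 and Pik3c3 did not pass the test. For Becn1 (Beclin 1) the log2 differences were -0.03 in WT and -0.04 in TAZKo, with intervals of -0.15 to 0.09 and -0.16 to 0.08. Becn1 shares 45.7% of its words with other genes, most with Cntd1 on the opposite strand, and its value is uncertain for that reason. Ambra1 (chr2:91730134-91918849) encodes a scaffold that binds Beclin 1 and ULK1. It stood at 107, 93.96 and 95.4 CPM in WT normoxia against 87.1, 80.04 and 79 in WT hypoxia, while TAZKo cells gave 104, 95.2 and 89.8 in normoxia against 82.1, 84.5 and 79.2 in hypoxia. Both hypoxic groups lay below both normoxic groups. It fell by 0.27 in WT (adjusted p = 0.00697) and by 0.23 in TAZKo (adjusted p = 0.0183) on the log2 scale.

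Pik3r4 (chr9:105642978-105687657) encodes VPS15, the regulatory subunit. Its levels were 57.2, 46.4 and 50.8 CPM in WT normoxia against 44.6, 45 and 45.3 in WT hypoxia, while TAZKo cells gave 50.2, 44.3 and 47.5 in normoxia against 41.5, 44.2 and 41.4 in hypoxia. The 2 groups compared in WT do not overlap, by a narrow margin. It fell in WT by 0.19 on the log2 scale (adjusted p = 0.0477), a call that was lost without WT normoxia sample 1 (-0.11, adjusted p = 0.156). The call was also lost with lane as a covariate, with a mean of at least 5 CPM and in the 6 samples compared alone.

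All 5 genes of lipid supply rose in WT hypoxia (median 0.54), beside 26% of all tested genes, and 4 of 5 rose in TAZKo (median 0.25), beside 22.2%. Atg2b (chr12:105616136-105685211) encodes one of the ATG2 lipid transfer proteins, which bridge the endoplasmic reticulum and the phagophore. Its levels were 101, 103 and 99.9 CPM in WT normoxia against 179.6, 161 and 172 in WT hypoxia, while TAZKo cells gave 99.1, 87.5 and 88.3 in normoxia against 150.03, 157 and 146 in hypoxia. All 6 hypoxic libraries were above all 6 normoxic ones. Hypoxia gave a log2 difference of 0.75 (SE 0.06, adjusted p = 5.13e-07) in WT and 0.72 (SE 0.06, adjusted p = 1.23e-06) in TAZKo. Atg2a (chr19:6241668-6262335), the paralog, stood at 166, 140.4 and 138 CPM in WT normoxia against 224, 205 and 219.8 in WT hypoxia, while TAZKo cells gave 115, 105 and 106 in normoxia against 127, 137 and 124 in hypoxia. Each hypoxic group was above its own normoxic group, but the TAZKo hypoxia values lay below the lowest value of WT normoxia. Atg2a rose by 0.54 in WT and by 0.25 in TAZKo on the log2 scale. The TAZKo call was lost without TAZKo normoxia sample 2 or 3 or TAZKo hypoxia sample 1 or 2 (adjusted p = 0.0545 to 0.117 in those 4 fits).

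Atg9a, the scramblase that travels in vesicles, rose by 0.66 in WT and 0.69 in TAZKo on the log2 scale. It shares 42.6% of its words with other transcripts, most with Gm29253 on the same strand, so its count may include reads of that gene. Wipi1 (chr11:109573331-109611967), a reader of PI3P, stood at 44.1, 45.5 and 43.8 CPM in WT normoxia against 59.2, 60.6 and 60.6 in WT hypoxia, while TAZKo cells gave 57.4, 55.04 and 57.5 in normoxia against 64.5, 69.7 and 66.4 in hypoxia. The 4 groups do not overlap, and they rank from WT normoxia up to TAZKo hypoxia. Wipi1 rose in hypoxia by 0.43 in WT and 0.24 in TAZKo, the second call being lost with no filter on low counts (adjusted p = 0.0547). Wipi2 rose in WT by 0.22, a call lost without WT normoxia sample 2 or 3 or WT hypoxia sample 1 (adjusted p = 0.0541 to 0.0691), and in TAZKo it gave 0.09 (SE 0.06, adjusted p = 0.195).

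Of the 11 conjugation genes, 2 rose and 3 fell in WT (median -0.05), beside 26% and 25% of all tested genes, and none rose and 2 fell in TAZKo (median -0.07), beside 22.2% and 21.6%. The WT counts are near the background, so they are no result about the group, and the roles were not tested against each other. The summed level of the group was 375 ± 5.09 CPM in WT normoxia and 374 ± 6.28 in WT hypoxia (SD, n = 3), and 400.1 ± 10.4 and 390.3 ± 9.24 in TAZKo. Atg16l2 (chr7:101263034-101302251) is a paralog of ATG16L1, the protein that places the conjugation complex on the membrane. It stood at 17.6, 18.5 and 17.9 CPM in WT normoxia against 14.2, 13.6 and 12.7 in WT hypoxia, while TAZKo cells gave 24.2, 23.8 and 22.4 in normoxia against 18.9, 17.9 and 18.3 in hypoxia. Hypoxic libraries were below normoxic ones of the same genotype, and TAZKo libraries were above WT ones in the same condition. The log2 difference in hypoxia was -0.42 (SE 0.07, adjusted p = 0.000231) in WT and -0.35 (SE 0.07, adjusted p = 0.000824) in TAZKo.

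Atg16l1 itself rose in WT, by 0.26 on the log2 scale (adjusted p = 0.0124). That call was lost in 7 of the 12 fits that left out 1 library: without WT normoxia sample 2 or 3, any WT hypoxia sample, TAZKo normoxia sample 2 or TAZKo hypoxia sample 1 (adjusted p = 0.0509 to 0.168). Atg4b (chr1:93751500-93790610) is the main protease that trims Atg8 proteins before conjugation and frees them afterwards. Its levels were 83.4, 75.5 and 76.97 CPM in WT normoxia against 68.3, 61.5 and 61.3 in WT hypoxia, while TAZKo cells gave 91.6, 80.05 and 82.7 in normoxia against 80.05, 84.9 and 77.9 in hypoxia. Only WT hypoxia stood low, below all the libraries of the other 3 groups. In WT the log2 difference was -0.30 (SE 0.07, adjusted p = 0.00281), and in TAZKo it was -0.07 (SE 0.07, adjusted p = 0.487), which did not pass. Atg4d, another protease of the family, fell in WT by 0.36 on the log2 scale, a call lost without WT normoxia sample 1 (-0.25, adjusted p = 0.0551), and the samples of the groups overlap.

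Atg12, the ubiquitin-like protein that is joined to ATG5, stood at 38.3, 44.7 and 46.7 CPM in WT normoxia against 60.03, 56.04 and 60.6 in WT hypoxia, while TAZKo cells gave 40.01, 42.9 and 41.9 in normoxia against 46.2, 48.4 and 46.3 in hypoxia. WT hypoxia was the highest group and the only one above 55 CPM. Atg12 rose in WT by 0.45 (SE 0.07, adjusted p = 0.000196), and in TAZKo the difference was 0.18 (SE 0.07, adjusted p = 0.0696) and did not pass, except with the replicate number as a block (0.18, adjusted p = 0.0485), without WT normoxia sample 1, in the 6 samples compared alone or with a mean of at least 5 CPM. Atg7 (chr6:114643097-114860614) encodes the E1-like enzyme that activates both ubiquitin-like proteins. It stood at 33.7, 32.2 and 34.05 CPM in WT normoxia against 29.9, 29.1 and 31.2 in WT hypoxia, while TAZKo cells gave 30, 30.9 and 30.8 in normoxia against 26.7, 28.4 and 27.2 in hypoxia. It fell in TAZKo by 0.16 on the log2 scale (adjusted p = 0.0465), and this call was lost without TAZKo normoxia sample 2 or 3 or TAZKo hypoxia sample 1 or 3 (adjusted p = 0.0568 to 0.0745) and, with all libraries, with no filter, with a mean of at least 5 CPM, with DESeq2 size factors and in the DESeq2 Wald test. In WT Atg7 missed the threshold at -0.15 (SE 0.06, adjusted p = 0.0516). It passed in 11 of the 12 fits that left out 1 library (adjusted p = 0.0136 to 0.0411), without any library but WT normoxia sample 1. In these 11 fits that sample was the scaling reference, and Atg7 also passed with this reference and all libraries. Other settings in which it passed were DESeq2 size factors, upper quartile scaling, library size alone, a mean of at least 5 CPM and lane as a covariate.

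Of the remaining conjugation genes, Atg3, Atg4a, Atg4c, Atg5 and Atg10 passed the test in neither genotype. Their log2 differences ran from -0.08 (Atg4a) to 0.20 (Atg10) in WT and from -0.27 (Atg4c) to 0.09 (Atg3) in TAZKo. Atg3, the E2-like enzyme for Atg8 proteins, had the narrowest interval of these in WT, -0.12 to 0.14. Leaving out WT normoxia sample 1 brought in a lower call for Atg4c in WT (-0.22, adjusted p = 0.034) and in TAZKo (-0.27, adjusted p = 0.0067). Atg4a shares 63.6% of its words with other annotated genes, most with the copy Atg4a-ps, so its level is uncertain.

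The Atg8 family split by member. In WT hypoxia 3 of the 5 rose and 1 fell (median 0.28), beside 26% and 25% of all tested genes. In TAZKo 2 rose and none fell (median 0.22), beside 22.2% and 21.6%. Map1lc3b (chr8:121590361-121598760) encodes LC3B. Its levels were 76.4, 68.7 and 75.1 CPM in WT normoxia against 128, 99.6 and 114 in WT hypoxia, while TAZKo cells gave 55.5, 58.3 and 67.01 in normoxia against 101, 102 and 97.3 in hypoxia. Every hypoxic library was above every normoxic one. It rose by a log2 difference of 0.64 (SE 0.09, adjusted p = 6.36e-05) in WT and 0.73 (SE 0.09, adjusted p = 2.87e-05) in TAZKo. Map1lc3a did not pass, at 0.26 (SE 0.13, adjusted p = 0.116) in WT and 0.22 (SE 0.13, adjusted p = 0.204) in TAZKo. With the replicate number as a block it passed in WT (0.26, adjusted p = 0.00417) and in TAZKo (0.21, adjusted p = 0.0138).

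Gabarapl1 (chr6:129533160-129542346), a member of the GABARAP branch, had the opposite direction in WT. It stood at 136, 142 and 154 CPM in WT normoxia against 138, 116 and 108 in WT hypoxia, while TAZKo cells gave 83.4, 84.99 and 85.6 in normoxia against 84.8, 91.6 and 84.4 in hypoxia. WT libraries were above TAZKo libraries in both conditions, and WT hypoxia sample 1 overlapped the WT normoxia range. It fell in WT hypoxia by 0.26 on the log2 scale (adjusted p = 0.0185), and in TAZKo the difference was 0.04 (SE 0.08, adjusted p = 0.738). Gabarap rose in WT by 0.28 and in TAZKo by 0.43. The WT call was lost without WT normoxia sample 2 (0.21, adjusted p = 0.0688) or WT hypoxia sample 1 (0.12, adjusted p = 0.101). Gabarapl2 (chr8:111940703-111953612) stood at 8.40, 10.5 and 11.1 CPM in WT normoxia against 13.6, 12.8 and 13.1 in WT hypoxia, while TAZKo cells gave 8.25, 8.80 and 9.49 in normoxia against 9.67, 10.1 and 10.8 in hypoxia. WT hypoxia was above the other 3 groups. It rose in WT by 0.39 (SE 0.10, adjusted p = 0.00576), and in TAZKo it gave 0.21 (SE 0.10, adjusted p = 0.129). Gabarapl1 shares 18.6% of its words with 1700101I11Rik on the opposite strand, and Gabarapl2 shares 17.0% with other genes, most with Gm3724.

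All 5 cargo receptors rose in WT hypoxia (median 0.33), beside 26% of all tested genes, and 3 of 5 rose in TAZKo (median 0.39), beside 22.2%. Their summed level went from 914 ± 23.4 CPM in WT normoxia to 1276 ± 69.6 in WT hypoxia, and from 915 ± 11.02 to 1234 ± 46.1 in TAZKo (SD, n = 3). Sqstm1 (chr11:50199366-50210827), the p62 gene, stood at 429.9, 373 and 368 CPM in WT normoxia against 676, 586 and 625 in WT hypoxia, while TAZKo cells gave 372, 365 and 364 in normoxia against 625, 647 and 566 in hypoxia. All hypoxic libraries were above all normoxic ones. In hypoxia it rose by 0.69 (SE 0.07, adjusted p = 4.96e-06) on the log2 scale in WT and 0.74 (SE 0.07, adjusted p = 3.8e-06) in TAZKo. Sqstm1 shares 20.4% of its words with Mrnip on the opposite strand. Optn (chr2:5020642-5064051) encodes optineurin, a receptor for ubiquitin-tagged mitochondria and bacteria. Its levels were 50.6, 48.3 and 47.7 CPM in WT normoxia against 88.2, 85.5 and 84.8 in WT hypoxia, while TAZKo cells gave 56.6, 55 and 53.4 in normoxia against 90.3, 89 and 86.2 in hypoxia. The normoxic and hypoxic ranges are far apart, and the spread inside each group is small. The log2 difference was 0.82 (SE 0.05, adjusted p = 4.26e-08) in WT, with the lowest adjusted p among the members, and 0.69 (SE 0.05, adjusted p = 3.44e-07) in TAZKo.

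Calcoco1, a receptor in selective autophagy of the endoplasmic reticulum, rose by 0.33 in WT and 0.39 in TAZKo on the log2 scale. Its WT call was lost without WT normoxia sample 2 or 3 or WT hypoxia sample 1 (adjusted p = 0.0502 to 0.104). Nbr1, a receptor related to p62, rose in WT by 0.22, and the call was lost without WT normoxia sample 2 or WT hypoxia sample 1 (adjusted p = 0.0504 and 0.0642). Tax1bp1 rose in WT by 0.21 (adjusted p = 0.0441). It was the least steady of the calls, lost without any 1 of the 12 libraries (adjusted p = 0.0557 to 0.277) and with WT normoxia sample 1 as the scaling reference (0.15, adjusted p = 0.133). The Tax1bp1 call was also lost with lane as a covariate, with upper quartile scaling, with library size alone, with no filter and in the 6 samples compared alone. In TAZKo, Nbr1 and Tax1bp1 gave 0.04 and -0.0066 and did not pass.

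**Figure D3:**
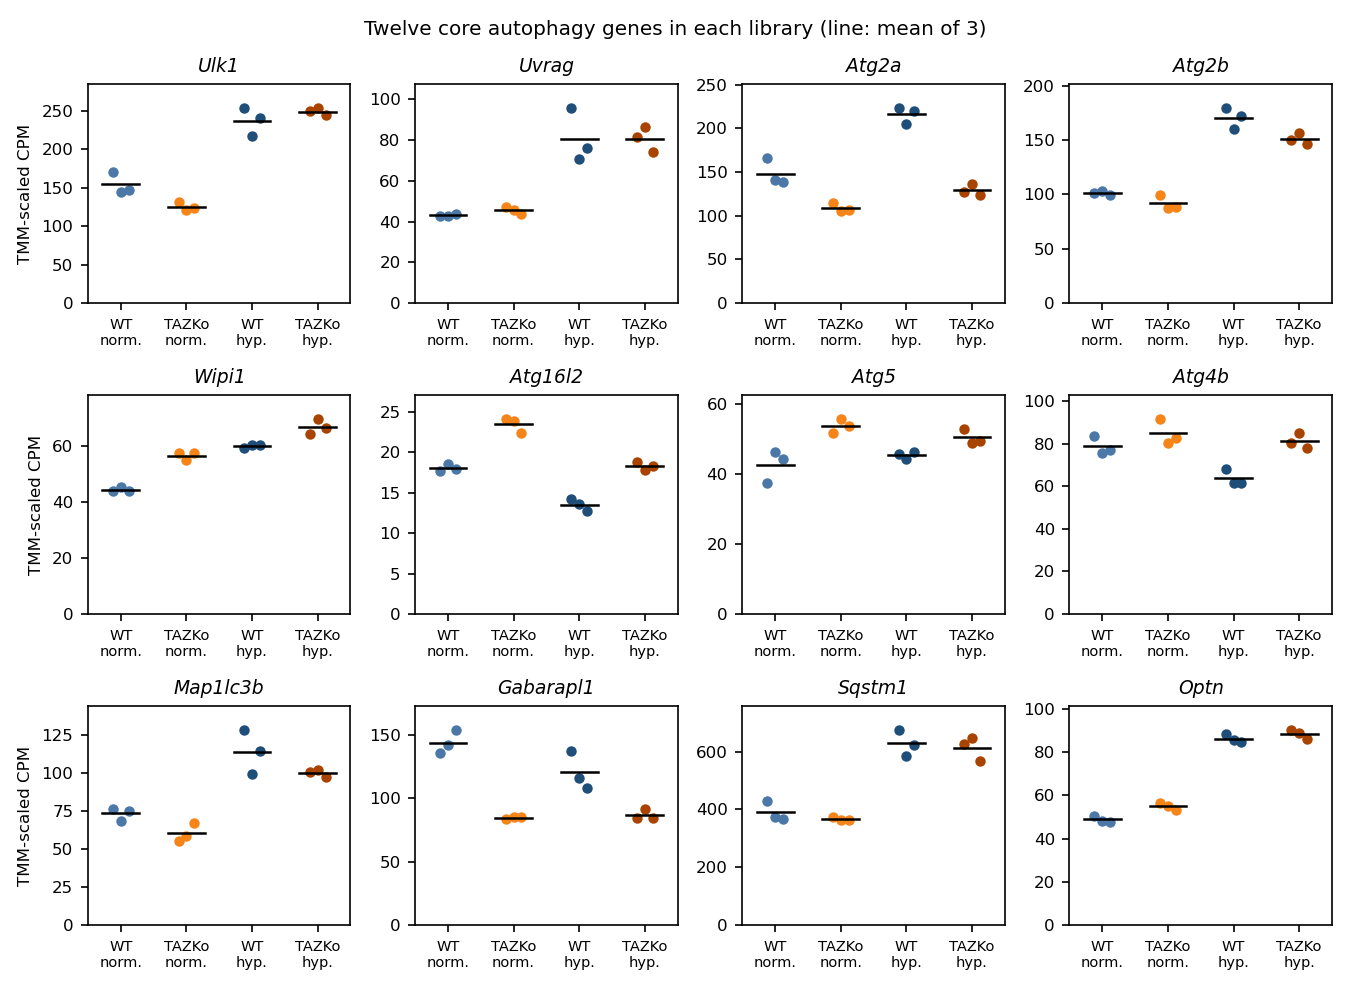
TMM-scaled CPM of 12 members in each library, by group, with a line at the mean of 3 samples; every vertical axis starts at 0. Ulk1, Uvrag, Atg2b, Map1lc3b, Sqstm1 and Optn are higher in every hypoxic library than in every normoxic one, and Gabarapl1 and Atg2a are higher in WT than in TAZKo libraries in both conditions.

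**Figure D4:**
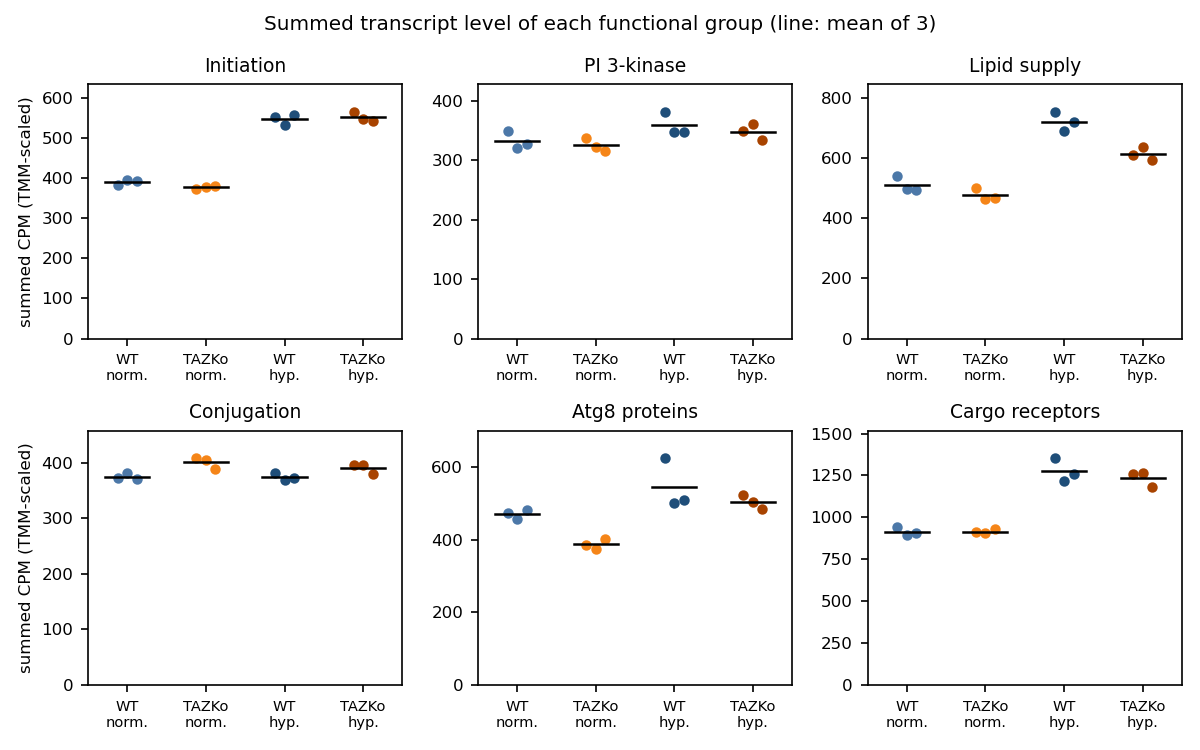
Summed TMM-scaled CPM of the genes of each role in each library, by group, with a line at the mean of 3 samples; every vertical axis starts at 0. The sums of initiation, lipid supply and cargo receptor genes are higher in hypoxia, and the conjugation sum stays between 368 and 408 CPM in all 12 libraries.

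The responses of the 2 genotypes were compared directly as an interaction, the hypoxia response of TAZKo minus that of WT. No member passed in the edgeR test, where 0.722% of all tested genes were called higher and 1.71% lower. By unadjusted p under 0.05, 7 of the 37 members had a difference, beside 2273 of all 14408 tested genes, so this count is near the background. In the DESeq2 Wald test 1 member, Ulk1, was called. A call in WT and not in TAZKo, as for Rb1cc1, Wipi2, Atg12, Atg16l1, Gabarapl2, Nbr1 and Tax1bp1, is therefore not shown to be a difference between the genotypes. The largest difference upward was that of Ulk1 at 0.37 (SE 0.10, adjusted p = 0.0924). It passed with the replicate number as a block (0.37, adjusted p = 0.0264) and without WT hypoxia sample 1 (0.44, adjusted p = 0.0315). Gabarapl1 gave 0.29 (SE 0.12, adjusted p = 0.23) and passed without WT hypoxia sample 1 (0.42, adjusted p = 0.0246). Atg2a gave -0.29 (SE 0.11, adjusted p = 0.195) and passed without WT normoxia sample 1 (-0.38, adjusted p = 0.0169). The lowest value was that of Rb1cc1 at -0.35 (SE 0.26, adjusted p = 0.572), and without WT normoxia sample 1 it was -0.12.

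Leaving out 1 library also brought in calls. Without WT normoxia sample 1, Ulk2 was called lower and Map1lc3a higher after hypoxia in WT (log2 differences of -0.17 and 0.36, adjusted p = 0.0299 and 0.0343). In TAZKo, Atg12 and Gabarapl2 were then higher after hypoxia (0.17 and 0.20, adjusted p = 0.0121 and 0.0464). Pik3r4 was lower there without WT normoxia sample 1 or 2 or TAZKo normoxia sample 2 (-0.23 to -0.16, adjusted p = 0.0306 to 0.0459).

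Between genotypes few members differed, and the largest differences were those of Gabarapl1 and Atg2a. In normoxia 4 of 37 were higher in the libraries labelled TAZKo, beside 15.6% of all tested genes, and 5 were lower, beside 14.9%. The median was 0.0059 on the log2 scale, beside 0.0099 for all genes. In hypoxia 3 were higher, beside 15.8%, and 6 lower, beside 16.9%, with a median of -0.04 beside -0.0078. In both conditions Wipi1 and Atg16l2 were higher, where 9.81% of tested genes were, and Pik3c3, Atg2a and Gabarapl1 were lower, where 9.72% were. These shares lie near or below those of all genes, so the counts are no result about the list, and the differences are given gene by gene. By unadjusted p under 0.05, 12 members differed in normoxia and 14 in hypoxia, beside 5831 and 6049 of all 14408 tested genes.

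**Figure D5:**
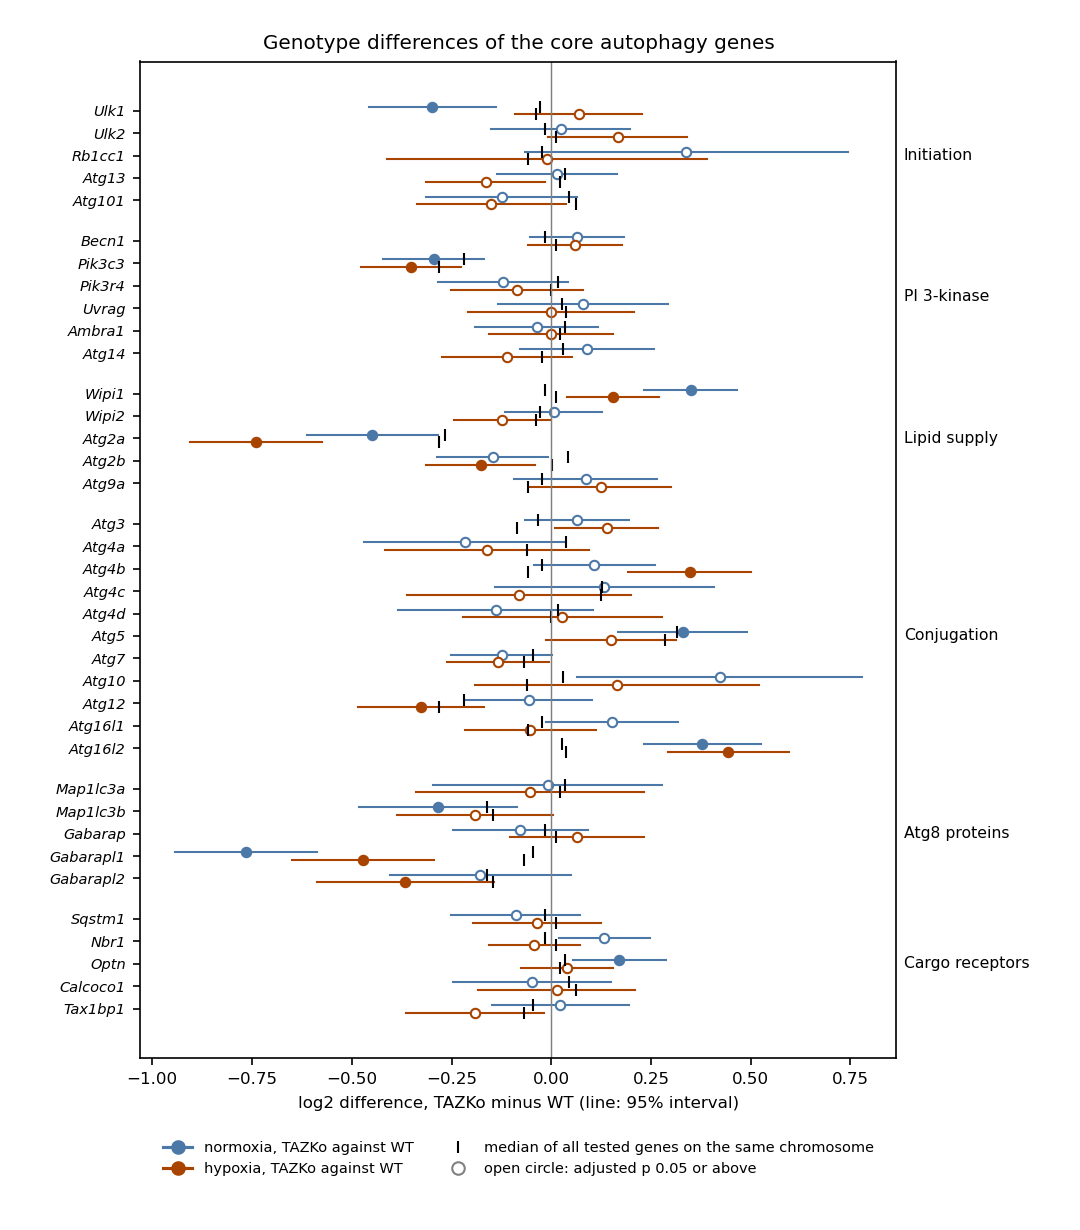
Log2 difference of each member between TAZKo and WT libraries in normoxia (blue) and hypoxia (brown), with 95% intervals as lines; filled circles have an adjusted p under 0.05 and black ticks mark the median of all tested genes on the same chromosome in that condition. Gabarapl1 and Atg2a lie farthest to the left, and Atg5 in normoxia lies at 0.33, beside a tick at 0.31 for chromosome 10.

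Gabarapl1 and Atg2a were both lower in TAZKo. Gabarapl1 differed by -0.77 (SE 0.08, adjusted p = 1.16e-05) in normoxia and by -0.47 (SE 0.08, adjusted p = 0.000667) in hypoxia. The difference for Atg2a was -0.45 (SE 0.08, adjusted p = 0.000589) in normoxia and -0.74 (SE 0.08, adjusted p = 8.24e-06) in hypoxia. In the values given above, neither gene's WT and TAZKo libraries overlap in either condition. Pik3c3, the catalytic subunit VPS34, stood at 41.2, 39.6 and 41.7 CPM in WT normoxia against 46.5, 44.1 and 44.2 in WT hypoxia, while TAZKo cells gave 34.3, 32.7 and 32.9 in normoxia against 36.3, 35.9 and 33.5 in hypoxia. All 6 TAZKo libraries were below all 6 WT libraries. The log2 difference was -0.29 (SE 0.06, adjusted p = 0.00176) in normoxia and -0.35 (SE 0.06, adjusted p = 0.000448) in hypoxia.

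Ulk1 and Map1lc3b were lower in normoxia, with log2 differences of -0.30 (SE 0.07, adjusted p = 0.00784) and -0.28 (SE 0.09, adjusted p = 0.0319). The Map1lc3b call was lost without WT normoxia sample 1 or TAZKo normoxia sample 1 or 2 (adjusted p = 0.0533 to 0.0766), and in the 6 samples compared alone. In hypoxia these genes gave 0.07 and -0.19 and did not pass. In hypoxia alone Atg12 (-0.33, SE 0.07, adjusted p = 0.00375) and Gabarapl2 (-0.37, SE 0.10, adjusted p = 0.0145) were lower, the second of these losing its call without TAZKo hypoxia sample 1 (-0.34, adjusted p = 0.0541). Atg2b was lower as well (-0.18, SE 0.06, adjusted p = 0.0476), a call lost without WT hypoxia sample 1 or 3 or TAZKo hypoxia sample 1 or 3 (adjusted p = 0.0868 to 0.121). With all libraries the Atg2b call was also lost with DESeq2 size factors, with upper quartile scaling, with library size alone and with no filter.

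Some further members were called between genotypes when a library was left out. Without WT normoxia sample 1, Atg16l1 was higher and Gabarapl2 lower in TAZKo normoxia (0.21 and -0.29, adjusted p = 0.0398 and 0.024). In hypoxia Ulk2 and Atg5 were then higher (0.17 and 0.15, adjusted p = 0.0234 and 0.0352) and Atg13 and Tax1bp1 lower (-0.16 and -0.19, adjusted p = 0.0426 and 0.00434). With all 12 libraries Atg13 and Tax1bp1 also passed in hypoxia with the replicate number as a block (-0.16, adjusted p = 0.0388 and -0.19, adjusted p = 0.0461). Pik3r4 was lower in normoxia without WT normoxia sample 2 (-0.22, adjusted p = 0.0426), and Map1lc3b in hypoxia without WT hypoxia sample 2 (-0.28, adjusted p = 0.0295). Atg2b was lower in normoxia without TAZKo normoxia sample 1 or WT hypoxia sample 1 or 2 (-0.23 to -0.18, adjusted p = 0.0192 to 0.0409), and with all libraries when WT normoxia sample 1 was the scaling reference (-0.18, adjusted p = 0.041).

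The members that were higher in TAZKo were a PI3P reader, 3 conjugation genes and a receptor. Atg16l2 differed by 0.38 (SE 0.07, adjusted p = 0.000824) in normoxia and 0.44 (SE 0.07, adjusted p = 0.000306) in hypoxia, with no overlap of libraries in either condition. Wipi1 differed by 0.35 (SE 0.05, adjusted p = 0.00028) in normoxia and 0.15 (SE 0.05, adjusted p = 0.0412) in hypoxia. The hypoxia call of Wipi1 was lost in 11 of the 12 fits that left out 1 library (adjusted p = 0.0559 to 0.184), without any library but WT normoxia sample 1. It was also lost with that sample as the scaling reference (0.15, adjusted p = 0.0504) and with no filter. Atg4b was higher in hypoxia (0.35, SE 0.07, adjusted p = 0.00213). Atg5 (chr10:44268358-44364291), the partner of ATG12, stood at 37.5, 46.4 and 44.2 CPM in WT normoxia against 45.6, 44.2 and 46.4 in WT hypoxia, while TAZKo cells gave 51.6, 55.7 and 53.6 in normoxia against 52.9, 48.8 and 49.5 in hypoxia. TAZKo normoxia was above WT normoxia without overlap, and WT normoxia sample 1 was the lowest library. Atg5 was higher in normoxia by 0.33 (SE 0.08, adjusted p = 0.00468), and in hypoxia it gave 0.15 (SE 0.08, adjusted p = 0.151). Optn was higher in normoxia by 0.17 (SE 0.05, adjusted p = 0.029). This call was lost in 11 of the 12 fits that left out 1 library (adjusted p = 0.0642 to 0.173), without any library but WT normoxia sample 1. It was also lost with that sample as the scaling reference (0.14, adjusted p = 0.064), with DESeq2 size factors and with upper quartile scaling. The same held with no filter, in the 6 samples compared alone and in the DESeq2 Wald test.

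Some of these differences shared their direction with the rest of their chromosome. The median TAZKo minus WT log2 difference of all tested genes was 0.31 in normoxia and 0.29 in hypoxia on chromosome 10, which holds Atg5. It was -0.27 and -0.28 on chromosome 19, which holds Atg2a, -0.22 and -0.28 on chromosome 18, which holds Pik3c3 and Atg12, and -0.16 and -0.15 on chromosome 8, which holds Map1lc3b and Gabarapl2. Of the 13 members called by genotype in either condition, 6 lie on these 4 chromosomes, and each differed in the direction of its chromosome. These 6 are all the members there. Chromosome 4, at 0.13 in both conditions, holds Atg4c, which was not called. Less the chromosome median, Atg5 had 0.015 left in normoxia, Pik3c3 -0.08 in normoxia and -0.07 in hypoxia, and Atg12 -0.05 in hypoxia. Atg2a had -0.18 left in normoxia and -0.46 in hypoxia, Map1lc3b -0.12 in normoxia and Gabarapl2 -0.22 in hypoxia. These remainders are for the conditions in which each member was called. In the condition without a call the full differences were -0.06 for Atg12 and -0.18 for Gabarapl2 in normoxia. In hypoxia they were 0.15 for Atg5 and -0.19 for Map1lc3b. Gabarapl1, on chromosome 6, and Atg16l2, on chromosome 7, lie where the medians were between -0.07 and 0.04. The part of these medians in the members' differences was not tested.

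Other genes of the pathway were given by 2 further lists, also chosen with earlier results of these data known. Of 28 regulators of autophagy, 27 were tested. In WT hypoxia 12 rose and 5 fell, beside 26% and 25% of all tested genes, led by Ddit4 (2.35), an inhibitor of mTORC1 signalling, the Rag GTPase Rragd (2.18) and the mTOR-binding protein Deptor (1.46), with Sesn3 (-0.86), the lysosomal transcription factor Tfeb (-0.72) and Rptor (-0.53) lowest. In TAZKo hypoxia 10 rose and 8 fell, beside 22.2% and 21.6%, led by Rragd (1.88), Ddit4 (1.86) and Rragc (0.95), with Sesn3 (-0.95), Sesn1 (-0.60) and the AMPK subunit Prkaa2 (-0.49) lowest. These values are log2 differences, and each named gene passed the test. In normoxia 11 regulators were higher in TAZKo, beside 15.6% of all tested genes, and 1 was lower, Tfeb (-0.64), beside 14.9%, with Deptor (2.30), the stress-induced gene Sesn2 (1.76) and Rragd (1.18) highest. In hypoxia 6 were higher and none lower, beside 15.8% and 16.9%, with Deptor (1.25), Rragd (0.88) and Sesn2 (0.64) highest. The regulators therefore held differences of over 2-fold, which the 37 core genes did not.

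Of 30 genes for autophagosome closure and fusion with the lysosome, 29 were matched and tested. In WT hypoxia 14 rose and 4 fell, beside the same 26% and 25% of all tested genes, with Snx18 (0.66), Tmem41b (0.64) and Wdr45 (0.60) highest and Tecpr1 (-0.52), Vps39 (-0.29) and Snap29 (-0.17) lowest on the log2 scale. In TAZKo hypoxia 12 rose and 2 fell, beside 22.2% and 21.6%, with Rab7 (0.53), Chmp2b (0.50) and Vps11 (0.48) highest and Tecpr1 (-0.51) and Vps39 (-0.28) falling. By genotype 2 were higher and 1 lower in normoxia, beside 15.6% and 14.9% of all tested genes, and 2 higher and 2 lower in hypoxia, beside 15.8% and 16.9%, so fewer than the background in each direction. Stx17, the syntaxin of the autophagosome, was higher in TAZKo in both conditions (0.42 and 0.38), and the ESCRT ATPase Vps4b was lower in both (-0.30 and -0.42). The mitophagy receptor Bnip3, a known hypoxia-induced gene, went from 6.58 ± 0.56 to 96.4 ± 3.93 CPM in WT and from 4.59 ± 0.28 to 92.0 ± 2.43 CPM in TAZKo (SD, n = 3), a far larger rise than that of any core member.

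Promoter sequence was read because 14 members rose together in both genotypes. RefSeq promoter windows on GRCm38.p6, 250 bases before to 50 after the start, matched 31 of the 37 members. The letters ACGTG, the core of the element bound by hypoxia-inducible factors, were searched on both strands and were found in 15 of 31 members (48.4%), beside 21.8% of all 27025 genes in the table and 29.2% of the 10300 tested genes. They were in 6 of the 14 members that rose in both genotypes and in 9 of the other 17. The E-box CACGTG, the core of the element bound by TFEB and TFE3, was in 4 of 31 members (12.9%), beside 8.09% of all genes and 11.7% of tested genes. It was in 1 of the 14 members that rose in both genotypes, Atg14, and in 3 of the other 17, Atg3, Atg5 and Atg7. CACGTG contains ACGTG on both strands, so each such match counts for both. The letters TGATGNAA, of the element bound by ATF4, were in none of the 31, beside 4.51% of all genes and 2.72% of tested genes. A match is a description of these letters in this window and not evidence of binding.

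The stretches below are the 150 bases before the RefSeq start, 5′ to 3′ on the gene's own strand, with ACGTG or its reverse complement in capitals. The first 3 are members that rose in both genotypes and hold the letters within these bases. The last 3 are conjugation genes in which the letters form the E-box CACGTG and which did not rise in either genotype. Atg14, which rose in both genotypes, also holds the E-box, but its match runs across the start and is not printed. The stretches are examples and compare no motifs.
Uvrag (chr7:99141145-99141294, minus strand): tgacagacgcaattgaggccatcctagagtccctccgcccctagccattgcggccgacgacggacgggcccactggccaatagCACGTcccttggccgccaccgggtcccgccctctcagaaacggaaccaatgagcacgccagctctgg
Atg2b (chr12:105685242-105685391, minus strand): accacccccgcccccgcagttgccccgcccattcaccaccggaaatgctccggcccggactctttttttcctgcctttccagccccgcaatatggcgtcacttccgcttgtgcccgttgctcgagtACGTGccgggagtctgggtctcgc
Atg9a (chr1:75192011-75192160, minus strand): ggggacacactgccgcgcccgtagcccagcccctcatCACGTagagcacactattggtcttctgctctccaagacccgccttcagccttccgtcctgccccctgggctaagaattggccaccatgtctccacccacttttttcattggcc
Atg3 (chr16:45158679-45158828, plus strand): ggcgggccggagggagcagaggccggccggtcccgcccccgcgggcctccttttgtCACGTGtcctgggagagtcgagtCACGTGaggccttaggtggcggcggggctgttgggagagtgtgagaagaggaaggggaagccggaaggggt
Atg5 (chr10:44268189-44268338, plus strand): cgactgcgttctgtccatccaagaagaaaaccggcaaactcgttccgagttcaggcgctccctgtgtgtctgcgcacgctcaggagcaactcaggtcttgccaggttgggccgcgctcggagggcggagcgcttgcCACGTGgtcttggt
Atg7 (chr6:114670946-114671095, plus strand): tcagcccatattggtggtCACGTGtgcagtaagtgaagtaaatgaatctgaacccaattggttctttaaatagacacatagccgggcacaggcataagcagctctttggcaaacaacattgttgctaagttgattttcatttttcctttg

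In the GENCODE M21 annotation of GRCm38, the Uvrag and Atg5 stretches lie outside annotated genes, and all 150 bases of the Atg2b stretch are exonic in Gskip, a gene on the opposite strand. The Atg9a stretch lies in exons of Atg9a itself, and 10 of its bases are also exonic in Ankzf1 on the opposite strand. In the Atg3 stretch 44 bases are exonic in Atg3 and 28 in Slc35a5 on the opposite strand. The Atg7 stretch lies in an intron of Atg7, since GENCODE also draws starts farther upstream. Atg3 carries the E-box at 2 places in its stretch, and Atg5 and Atg7 each carry it at 1.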

How the data were processed

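RNA from 12 samples was sequenced after TruSeq RNA v2 library preparation, per the labels' protocols. The deposited files hold whole-number read counts per Ensembl gene, and per the submitters' processing notes the build was mm10; the aligner and counter are not given in the sources used here. The 37 members and the further lists were chosen with earlier results of these data known. Counts were tested in R 4.3.3 with the quasi-likelihood test of edgeR 4.0.16, with its filter on low counts, TMM scaling and all 4 groups in 1 fit, and Benjamini-Hochberg adjustment covered all 14408 tested genes, with a threshold of 0.05. Values in every sample are given for members called without overlap of samples, at most the 5 largest each way per comparison, and other members by their differences. Scripts were tested on simulated data. Total counts were 21039451 to 31204510. The tagwise (per-gene) coefficient of variation from edgeR was 8.62%. Samples of a group differed by more than counting error. The mean chi-square per gene ran from 2.90 for TAZKo normoxia samples 2 and 3 to 43.5 for WT normoxia samples 1 and 3.

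No main test paired the samples, and the replicate number entered only as a block in an alternative. Pairing was checked by whether deviations of same-number samples correlated above 0.1 in all 3 pairs. This held for WT and TAZKo normoxia (mean r = 0.24) and for WT normoxia and WT hypoxia (mean r = 0.24), and not for the other comparisons. Some pairs of different numbers also passed 0.1 there. WT normoxia sample 3 gave r = 0.18 with WT hypoxia sample 2 and 0.15 with WT hypoxia sample 3. WT normoxia sample 2 gave 0.12 with TAZKo normoxia sample 3. The check therefore cannot show that samples were paired by number. With the block, 5212 genes were called between genotypes in normoxia in place of 4384. After hypoxia in WT they were 8032 in place of 7355. What the number stands for is not given in the labels. Alternatives were other scalings and filters, the replicate block, lane as a covariate, the 6 samples compared alone, DESeq2 1.42.0 and leaving out each sample. Lane was uneven between conditions. In both normoxic groups samples 1 and 2 were in lane 4 and sample 3 in lane 5, and in both hypoxic groups sample 1 was in lane 4 and samples 2 and 3 in lane 5.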

Additional observations from a re-analysis of the deposited data

Results flagged for a closer look

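No core member differed between genotypes in its hypoxia response by the interaction test, but 4 genes beside them did. These came from the 27 regulators and 29 closure and fusion genes tested, with Bnip3 and Taz. Of all tested genes 0.722% were called higher and 1.71% lower. The 4 calls were not recomputed under the alternatives. The values are the hypoxia response in TAZKo minus that in WT on the log2 scale, from edgeR's quasi-likelihood test with Benjamini-Hochberg adjustment. Deptor, an inhibitor of mTOR, had a difference of -1.05 (adjusted p = 0.00285). Sesn2, a stress-induced gene, had -1.12 (adjusted p = 0.00185). Atf4, the transcription factor of the integrated stress response, had -0.72 (adjusted p = 0.00554). Bnip3, a mitophagy receptor, had 0.45 (adjusted p = 0.045), and its level in each group is given above.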

How the results depend on the processing

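No member passed the interaction test, and 1 passed with no filter, with the replicate block and in the DESeq2 Wald test. Leaving out 1 library gave 0 to 2 members. The other counts of called members, both directions together, stayed within 1.5 times under the alternatives run, but counts in 1 direction did not. In TAZKo hypoxia 14 rose and 3 fell, against 12 and 6 with library size alone, 17 and 6 with the 6 samples compared alone, and 17 and 5 without WT normoxia sample 1. Between genotypes in hypoxia 3 were higher and 6 lower, against 5 and 7 with the 6 samples compared alone and 5 and 8 without WT normoxia sample 1. For the named members, 34 values were recomputed 748 times, of which 701 kept their call, 47 lost it and none reversed. These 34 were picked as calls without overlap of samples, at most the 5 largest each way per comparison. Less steady calls such as those of Tax1bp1 and Atg16l1 are not among them, so the share kept does not describe all calls. Calls held in every alternative for 7 of 9 members between genotypes in normoxia, 6 of 9 in hypoxia, 19 of 27 for hypoxia in WT and 13 of 17 in TAZKo. Beside the losses named above, the WT hypoxia calls of Wipi2, Atg16l1, Gabarap, Nbr1 and Calcoco1 were lost in the 6 samples compared alone. With no filter those of Wipi2, Atg16l1 and Nbr1 were lost, and that of Atg13 in TAZKo. Upper quartile scaling lost that of Atg16l1. The replicate block lost no call. In 11 of the 12 fits without 1 library the TMM reference changed to WT normoxia sample 1. With that reference on all 12 libraries, an alternative chosen after seeing the data, 3 members were higher and 6 lower between genotypes in normoxia, 2 and 6 in hypoxia, and 20 rose and 7 fell after hypoxia in WT.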

Other observations

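Ratios of some paralogs of the core machinery are given for the 4 groups. They come from the same values as the differences above and add no separate support. The ratio of Atg2a to Atg2b, per kilobase of exon, was 2.56 ± 0.28 in WT normoxia against 2.21 ± 0.03 in WT hypoxia, and TAZKo cells gave 2.08 ± 0.05 in normoxia against 1.497 ± 0.02 in hypoxia (SD, n = 3). In each of the 4 comparisons of genotype or hypoxia its samples did not overlap (two-sided exact permutation p = 0.1, the smallest that 3 against 3 can give). This test therefore cannot reach 0.05 for any ratio. The median genotype difference on chromosome 19, which holds Atg2a, was -0.27 in normoxia and -0.28 in hypoxia. On chromosome 12, which holds Atg2b, it was 0.04 and 0.0014. The part of these medians in the ratio was not tested. The ratio of Gabarapl1 to Gabarap was 0.659 and 0.453 for WT in normoxia and hypoxia, and 0.409 and 0.313 for TAZKo, also without overlap in the 4 comparisons. That of Atg16l2 to Atg16l1 was 0.416, 0.260, 0.486 and 0.367 in the same order, again without overlap. The ratio of Ulk1 to Ulk2 was 2.05, 3.26, 1.61 and 3.04, and its samples overlapped between genotypes but not between normoxia and hypoxia. The same held for Map1lc3b to Map1lc3a, at 0.257, 0.333, 0.212 and 0.303.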
